A study of Cicer arietinum with 8 samples.

Results

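The probes described here are 35 spotted cDNAs. Relative to the other probes on the same arrays, their transcripts were lower in salt-stressed roots than in control roots at 48 h. Their mean shoot values at 48 h stayed within 1.5-fold of the centre, while single shoot arrays could lie farther out. They were chosen from 559 probes with a code starting U or CA, of 756 probes in all other than controls. For the choice, the mean local background was subtracted from the mean signal of each spot, the log2 ratio of salt over control was averaged over a probe's spots on an array, and the array's median over U and CA probes was subtracted. Of 231 probes with such a ratio on at least 2 of the 3 root arrays at 48 h, 85 were below 0 on every array that measured them. A mean of at least 0.585 below 0 on the log2 scale (a 1.5-fold difference) and a shoot mean at 48 h within that distance of 0 left 35 probes, 25 with a U code and 10 with a CA code. Another 10 probes met the root criterion and were left out for their shoot value.

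The study followed chickpea (Cicer arietinum) genotype ICC 3996 under drought, cold and high salinity, with stressed and control RNA hybridised together on 2-colour cDNA arrays. Each of 8 comparisons had 3 arrays, on the third of which the dyes were exchanged. The series design calls the arrays biological replicates; RNA came from pooled tissue, of 5 plants per group where a number is given, and p-values measure the spread between arrays. For the salt comparisons, seedlings grown in aerated nutrient solution received 150 mM NaCl at 18 days, against a change of medium without NaCl, and shoots and roots were taken 24 h and 48 h later. For drought, leaves and flowers with early pods were taken after flowering once the stressed pots were down to 30% water content, against pots kept at 80%. For cold, the same tissues were taken after a week of nights at 5 °C, against plants kept in the glasshouse. Salt was thus tested on seedlings in solution and the other stresses on flowering plants in potting mix. The files do not say which species a U or CA code stands for. The probes carry codes and no gene description, so no role is given for any of them, and the labelled organs could not be checked against marker genes.

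Roots are the organ that meets salt in the growth medium first. High external NaCl makes water harder to take up within minutes to hours and later raises sodium and chloride in the tissue. Root growth slows, and transcript levels of many genes fall as well as rise in root cells under these conditions, while the shoot receives salt later through the transpiration stream.

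The number of unflagged spots per channel, of 4704 on each array, ran from 602 to 2879, and the U and CA probes above background from 146 to 483. The lowest of both belonged to control RNA on array 1 of the 48 h roots, where the salt channel had 2605 unflagged spots. The 24 h root arrays held copies of 1 scan: at least 99.7% of their spots had identical pixel SDs, against 0.0% between the 48 h root arrays. They were used as 1 measurement with no test. Drought and cold arrays were quantified on other days than salt arrays, so day and salt against the other stresses cannot be told apart.

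In salt-stressed roots at 48 h the mean ratios of the 35 probes ran from -2.38 to -0.61 on the log2 scale, with a median of -1.01. These values chose the probes and are given as a description. The shoot means at 48 h, also used in the choice, ran from -0.58 to 0.57 with a median of -0.06, and 20 were below 0 and 15 above. Single shoot arrays at 48 h went farther, as in CA1122 at -1.20, -0.49 and 0.38 and CA1108 at 0.48, 0.86 and -0.18. Roots minus shoots ranged from -2.25 to -0.29. In bulk tissue, fewer cells of a type and less RNA per cell cannot be told apart.

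**Figure D1:**
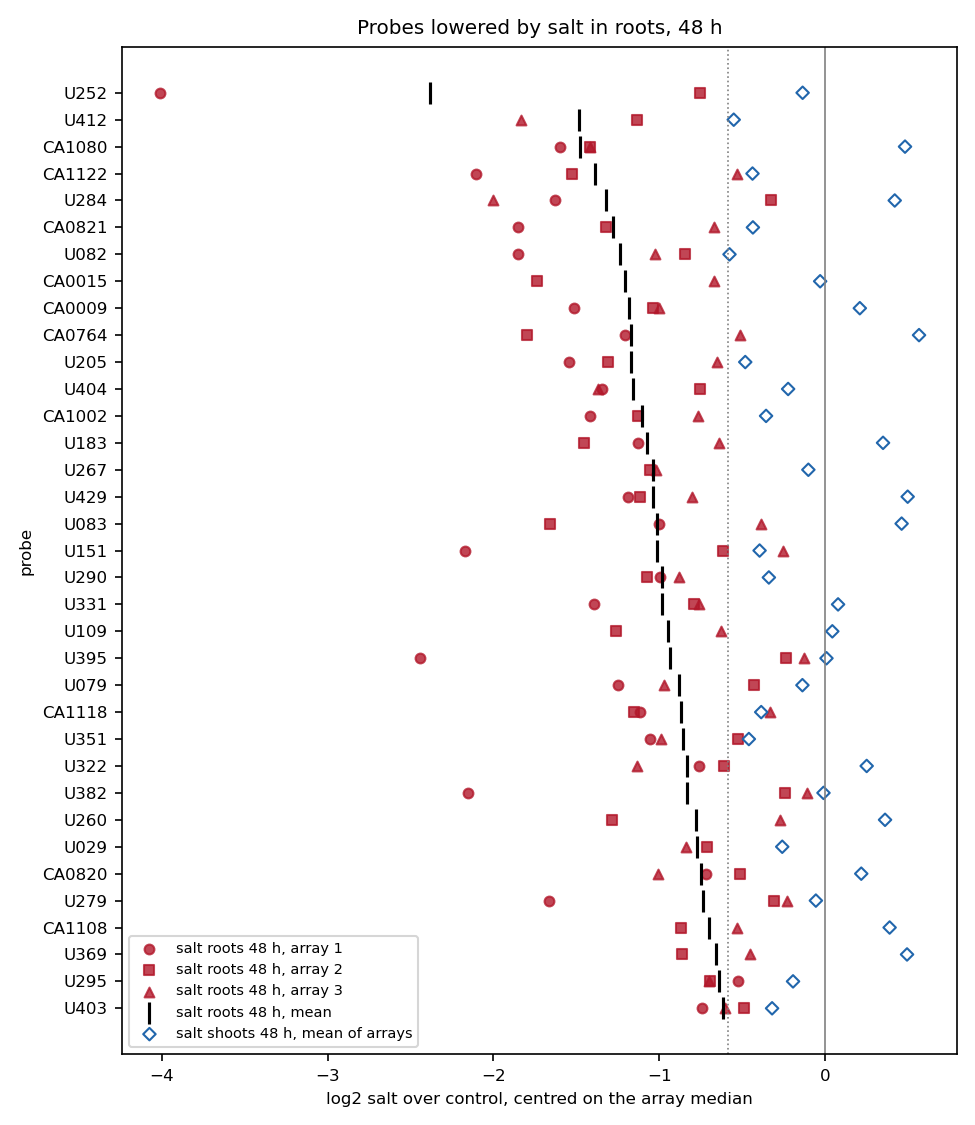
Log2 ratio of salt over control for each of the 35 probes, centred on the array median: red symbols are the 3 root arrays at 48 h, black ticks their mean and blue diamonds the mean of the shoot arrays at 48 h. The dotted line marks the root limit of 0.585 below 0. U252 is farthest left, with array 1 at -4.01 and array 2 at -0.75, and the shoot means lie on both sides of 0.

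Among the 26 probes measured on all 3 root arrays, CA1080 had the lowest mean, with ratios of -1.60, -1.42 and -1.42 on arrays 1, 2 and 3. CA1122 had ratios of -2.11, -1.53 and -0.53. U284 had ratios of -1.63, -0.33 and -2.0. By this measure CA1080 was nearly the same on every array, while CA1122 and U284 were each much nearer to 0 on 1 array. After loess the ratios of CA1080 were 0.12, -1.30 and -1.13, so that agreement did not hold there. Ratios of CA0821 were -1.85, -1.32 and -0.67, and those of U082 were -1.85, -0.84 and -1.02. CA0009 gave -1.52, -1.04 and -1.0, and CA0764 gave -1.21, -1.80 and -0.51. In each of these 4 probes the array nearest to 0 was array 2 or 3. U205 stood at -1.55, -1.31 and -0.65. U404 stood at -1.34, -0.76 and -1.37. CA1002 stood at -1.42, -1.13 and -0.77. These 3 probes were past the limit of 0.585 below 0 on every array. U183 had ratios of -1.13, -1.45 and -0.64, and U429 had ratios of -1.19, -1.12 and -0.80.

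The other 9 probes were measured on 2 root arrays, 8 of them without array 1. U412 had ratios of -1.14 and -1.84 on arrays 2 and 3, CA0015 of -1.74 and -0.67, U267 of -1.05 and -1.02, and U109 of -1.26 and -0.63. Salt RNA of CA0015 was not above background on array 2. U252, which had the lowest mean of all, had ratios of -4.01 and -0.75 on arrays 1 and 2. Its value on array 1 came from 1 spot, and its control RNA was above background on 1 of the 3 root arrays, as was that of U369. U151, U382 and U395 also rested on 1 spot on array 1, where they stood at -2.17, -2.16 and -2.44. Without array 1, the means of U382 and U395 were -0.17 and -0.18, that of U151 was -0.44 and that of U279 was -0.27.

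Close to the limit, U369, U295 and U403 were included at -0.66, -0.64 and -0.61, and U502, CA0890 and U292 were not, at -0.57, -0.54 and -0.53. The membership also moved with the arrays used. The same rule gave 29 probes without array 1, all among the 35. It gave 27 without array 2 (26 among the 35) and 32 without array 3 (27 among the 35). Without array 1 the probes lost were U252, U151, U395, U382, U279 and U403.

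The word lowered refers to each array's own centre. Before centring, the median ratio of U and CA probes was 3.16, 0.66 and 1.01 on root arrays 1, 2 and 3 at 48 h, over 121, 278 and 267 probes. Salt RNA was brighter than control RNA for most probes on all 3 arrays. Before centring, 1 of 27 of the described probes was below 0 on array 1, 25 of 35 were on array 2 and 8 of 34 were on array 3. For U284, the spot signals averaged 34210 in salt roots and 12457 in control roots on array 1. They averaged 48430 in salt and 39898 in control roots on array 2, and 15294 in salt and 29086 in control roots on array 3. On arrays 1 and 2 the raw signal of U284 was therefore higher in salt roots, and by less than that of the typical probe. Signals of CA1080 averaged 3051 in salt and 1556 in control roots on array 1, 2002 in salt and 3137 in control roots on array 2, and 2556 in salt and 2815 in control roots on array 3. How much of the shift between the channels came from labelling or scanning and how much from the RNA was not tested.

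**Figure D2:**
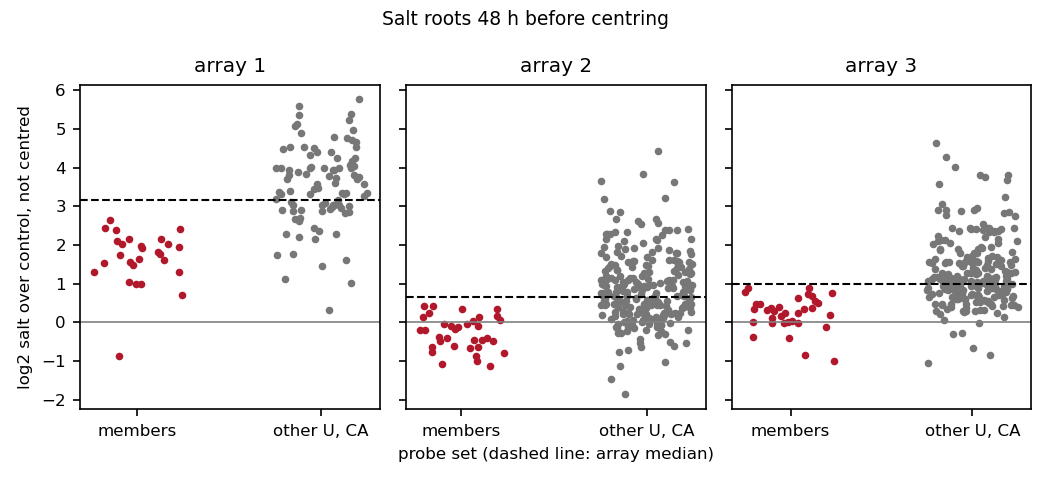
Log2 ratio of salt over control in roots at 48 h before centring, 1 panel per array, for the 35 described probes (red) and the other U and CA probes (grey); each point is a probe and the dashed line is the array median. The medians are 3.16, 0.66 and 1.01, and the described probes lie below each of them but mostly above 0 on arrays 1 and 3.

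With normexp background correction and loess in place of subtraction and centring, the described probes were below 0 on 21 of 27, 35 of 35 and 33 of 34 measured values on arrays 1, 2 and 3. In the limma fit to these values, the ratios in roots at 48 h ran from -1.46 to -0.00 with a median of -0.75, against a median of 0.02 over the 244 probes fitted there. U404 was 2.49-fold lower (log2 -1.32 ± 0.18, SE, n = 3 arrays), and CA0009 was 2.46-fold lower (-1.30 ± 0.22). CA1080, the lowest on 3 arrays by the rule's measure, had ratios of 0.12, -1.30 and -1.13 after loess. The ratio of U151 was -0.00 ± 0.15 and that of U279 was -0.08 ± 0.22, both close to 0 in the fit. The fit called 28 of the 35 lower at an adjusted p under 0.05, beside 18.0% of all 244 probes lower and 41.0% in either direction. This contrast chose the probes, and nothing is read from the count. With the loess values in place of the subtracted ones, the rule gave 27 probes, 26 of them among the 35. CA1080, CA1122, U082, U151, U331, CA1118, U029, U279 and U369 were not among the 27.

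Most of the probes were also low in the 24 h root scan, which the choice had not used. Of 33 with a value, 31 were below 0, beside 50.0% of all 286 U and CA probes measured in it. At least 1.5-fold lower were 23 of the 33 (69.7%), beside 20.3% of the 286, and 0 were 1.5-fold higher. Among the 222 probes that also had values on at least 2 root arrays at 48 h, 22.5% were that low, or 19.8% after loess. The median of the 33 was -0.94, against 0 by construction for the array. With loess, 29 were below 0, 21 were 1.5-fold lower and U183 was 1.5-fold higher, and the median was -0.84 against 0.06 over all 286. As this is 1 scan, it carries no replicate error, and the dye that its salt RNA carried is not known.

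The lowest at 24 h were U284 at -2.04, CA1080 at -1.93, U412 at -1.91, U351 at -1.79 and U404 at -1.65. U284, CA1080, U412 and U404 were also among the low values at 48 h, with means of -1.32, -1.48, -1.49 and -1.16. U351 had a mean of -0.86 at 48 h, so its ratio was nearer to 0 at the later time by 0.94 on the log2 scale. In the scan, the signals of U284 averaged 11296 in salt roots and 37668 in control roots, and those of CA1080 averaged 1532 and 3407. For both probes the salt signal at 24 h was below the control signal without any centring.

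The highest at 24 h were U183 at 0.51, CA1108 at 0.09, U395 at -0.06, U382 at -0.08 and CA0015 at -0.10. U183 is the clearest exception to the shared pattern, past the limit of 0.585 below 0 on 3 root arrays at 48 h and the highest of the 33 at 24 h. Its spot signals at 24 h averaged 32769 in salt and 19871 in control roots. On array 2 at 48 h they averaged 22229 in salt and 38261 in control roots. Of the 10 probes left out for their shoot value, 8 had a 24 h value and 5 of these were 1.5-fold lower, with a median of -0.85. Of 29 probes raised in roots by the same rule turned round, 27 had a value, 15 were 1.5-fold higher and 1 was 1.5-fold lower, with a median of 0.68.

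**Figure D3:**
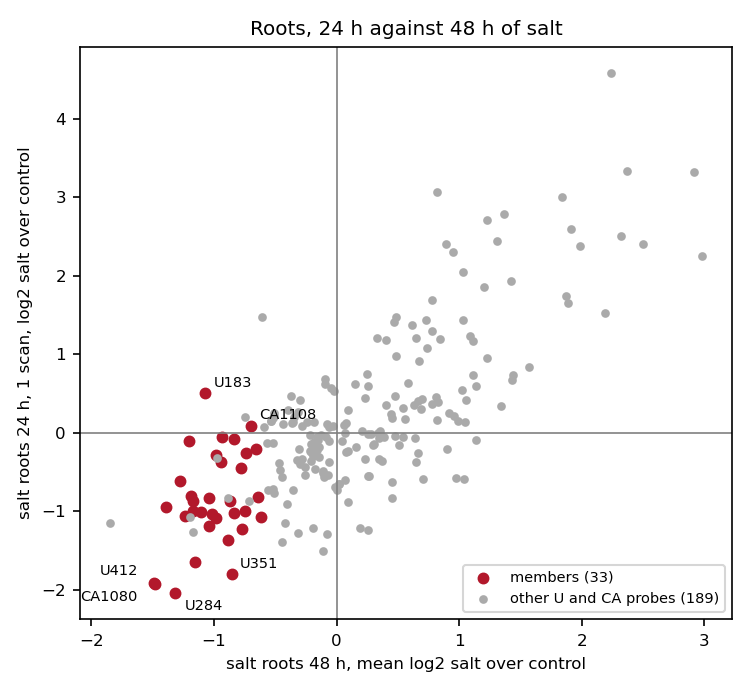
Log2 ratio of salt over control in the single 24 h root scan (vertical axis) against the mean of the root arrays at 48 h (horizontal axis), both centred on the array median, for 33 described probes (red) and 189 other U and CA probes (grey). The red points are left of 0 by the rule that chose them; 31 of the 33 lie below 0 at 24 h, and U183 at 0.51 and CA1108 at 0.09 lie above.

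Salt-stressed shoots at 24 h had not been used for the choice either, and here the difference from 0 could be tested. Ratios per array in this and the drought and cold conditions are the loess values that entered the fit. At 24 h, 4 of the 34 probes tested were lower in salt shoots and 0 were higher at an adjusted p under 0.05 (limma), beside 2.54% of all 394 probes lower, 2.54% higher and 5.08% in either direction. The name "roots only" was set by shoots at 48 h, and in this fit it did not cover these 4 at the earlier time. A probe that did not pass is not thereby shown to be unchanged. U412 had ratios of -0.61, -0.20 and -1.09 on the 3 shoot arrays and was 1.61-fold lower (log2 -0.69 ± 0.16, SE, limma adjusted p = 0.0277). U403 had ratios of -0.19, -0.43 and -1.05 and was 1.53-fold lower (-0.61 ± 0.16, limma adjusted p = 0.0345). U082 had ratios of -0.77, -0.46 and -0.69 and was 1.51-fold lower (-0.60 ± 0.15, limma adjusted p = 0.0342). U205 had ratios of -0.94, -0.73 and -0.34 and was 1.49-fold lower (-0.58 ± 0.15, limma adjusted p = 0.0342). Every array of these 4 probes was below 0. Each of the 4 calls was lost in the fit without array 1 and in the fit without array 3 of salt shoots at 24 h. Those of U403 and U205 were also lost without array 2, and all 4 were lost when the condition was fitted alone. Without array 2 or without array 3 of drought flowers, which share the estimate of spread, 1 of the 4 calls was left, that of U412.

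In the loess values of shoots at 48 h, U412 stood at -0.62 ± 0.16 and U082 at -0.59 ± 0.15, while CA0764 stood at 0.62. Their means by the rule's own measure, -0.55, -0.58 and 0.57, lay just inside the limit of 0.585. U412 and U082 were thus low in shoots at both times in the fitted values. The fitted root values at 48 h were -1.30 ± 0.19 for U412 and -0.63 ± 0.15 for U082.

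Of the 31 probes with 3 shoot arrays at 24 h, 12 (38.7%) were below 0 on all 3, beside 23.0% of 304 probes, and 2 were above 0 on all 3, beside 19.4%. At an unadjusted p under 0.05, 10 were lower and 2 higher of 34 (35.3%), beside 27.7% of all probes in either direction. The median of the 34 was -0.12, against 0.03 over all 394. Short of the threshold, CA1002 had ratios of -0.61, -0.70 and -0.36 (limma adjusted p = 0.0526), and U404 had ratios of -0.29, -0.12 and -1.04 (limma adjusted p = 0.071). U029, U351, U267, U322, U079 and CA0820 were also below 0 on every array, with fitted values from -0.47 to -0.19. In the opposite direction, U284 had ratios of 0.95, 0.88 and 0.07 in shoots at 24 h, with a fitted value of 0.56 ± 0.24 (limma adjusted p = 0.148). U260 had 0.18, 0.07 and 0.39, with a fitted value of 0.24 ± 0.16.

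In drought-stressed leaves, 0 of the 35 probes passed the limma threshold, as did 0.0% of all 441 probes. At an unadjusted p under 0.05, 3 of the 35 were lower and 6 higher, beside 78 of the 441, and the methods' t-test called 0 after adjustment and 6 before it, beside 7.26% of all probes before it. The median was -0.00, against -0.01 over all probes. U412, one of the probes low in salt shoots at 24 h, had ratios of 0.46, 0.45 and 0.53 in drought-stressed leaves, with a fitted value of 0.42 ± 0.16 (limma adjusted p = 0.206). U351 had ratios of 0.77, 0.26 and 0.50, and U183 had ratios of 0.32, 0.69 and 0.42. These 3 probes were above 0 on every array, as were U403, U029, U404 and U429, which makes 7 of 31 beside 20.9% of 301 probes. Lowest among the probes with 1 sign on 3 arrays were U267 with -0.24, -0.44 and -0.60, CA0015 with -0.16, -0.34 and -0.79, and U109 with -0.52, -0.37 and -0.27. In all, 6 of the 31 were below 0 on every array, beside 17.3%. The smallest adjusted p of any of the 35 in limma was 0.178.

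In drought-stressed flowers, 0 of the 35 passed in limma, beside 0.0% of 434 probes. At an unadjusted p under 0.05 there was 1, and 51 of the 434, while the methods' t-test found 2, beside 12 of the 434, and 0 held after adjustment. The 1 probe in limma was U331, with ratios of -1.61, -0.36 and -0.05 and a fitted value of -0.69 ± 0.26 (limma adjusted p = 0.253). Without array 3 it passed, at an adjusted p of 0.0486. CA0009 had ratios of -0.30, -0.23 and -0.30, and U290 of -0.65, -0.14 and -0.02. U284 had 1.16, 0.31 and 0.21, U404 had 0.75, 0.16 and 0.11, and U351 had 0.77, 0.01 and 0.02. Over 27 probes with 3 arrays, 5 were below 0 on all of them, beside 22.3% of 184, and 3 were above, beside 17.9%. In U331, U290, U284, U404 and U351 array 1 was the farthest from 0. That array had the dim control channel of the condition, with 1034 unflagged spots, and the part of this in the ratios was not tested. The median of the 35 in this condition was 0.05, and it was -0.07 without array 1.

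In cold-stressed leaves, 2 of the 35 probes were higher and 0 lower (limma adjusted p under 0.05), beside 2.8% higher, 0.932% lower and 3.73% in either direction of all 429 probes. U284 had ratios of 0.86, 1.56 and 1.11 and was 2.15-fold higher (log2 1.11 ± 0.24, SE, limma adjusted p = 0.0213). U109 had ratios of 0.48, 0.28 and 0.68 and was 1.44-fold higher (0.53 ± 0.12, limma adjusted p = 0.0213). All 3 arrays of both probes were above 0. The call of U284 was lost without array 2 or 3 of cold leaves and that of U109 without array 1 or 3, and both were lost when the condition was fitted alone. U267 had ratios of 0.82, 0.25 and 0.46 (limma adjusted p = 0.19). At the other end among the probes with 1 sign on 3 arrays, U260 had -0.22, -0.81 and -0.43, CA0764 had -0.19, -0.79 and -0.58, and U205 had -0.40, -0.79 and -0.08. These 3 probes were below 0 on every array and did not pass. Of 27 probes with 3 arrays, 6 were below 0 on all of them, beside 21.6% of 283, and 3 were above, beside 16.6%. At an unadjusted p under 0.05, limma gave 3 lower and 3 higher of the 35 (17.1%), beside 16.8% of all probes. The methods' t-test gave 3, beside 43 of the 429, and 0 of the 3 held after adjustment. The median of the 35 was -0.01, against 0.01 over all probes.

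In cold-stressed flowers, 0 of the 35 passed in limma, beside 0.0% of 433 probes. At an unadjusted p under 0.05 there were 2, both lower, and 51 of the 433, and the methods' t-test found 4, beside 40 of the 433, and 0 held after adjustment. U083 had ratios of -0.60, -0.35 and -0.51, U260 of -0.55, -0.40 and -0.35, and U279 of -0.38, -0.10 and -0.56. CA0820 had 0.50, 0.37 and 0.14, CA0009 had 0.39, 0.07 and 0.56, and CA1118 had 0.03, 0.03 and 0.41. Of 31 probes with 3 arrays, 7 were below 0 on all of them, beside 16.6% of 296, and 5 were above, beside 16.2%. U260 was below 0 on every array of drought-stressed leaves, cold-stressed leaves and cold-stressed flowers and above 0 on every array of salt shoots at 24 h. Its smallest adjusted p among these 4 conditions was 0.152 (limma, cold leaves).

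**Figure D4:**
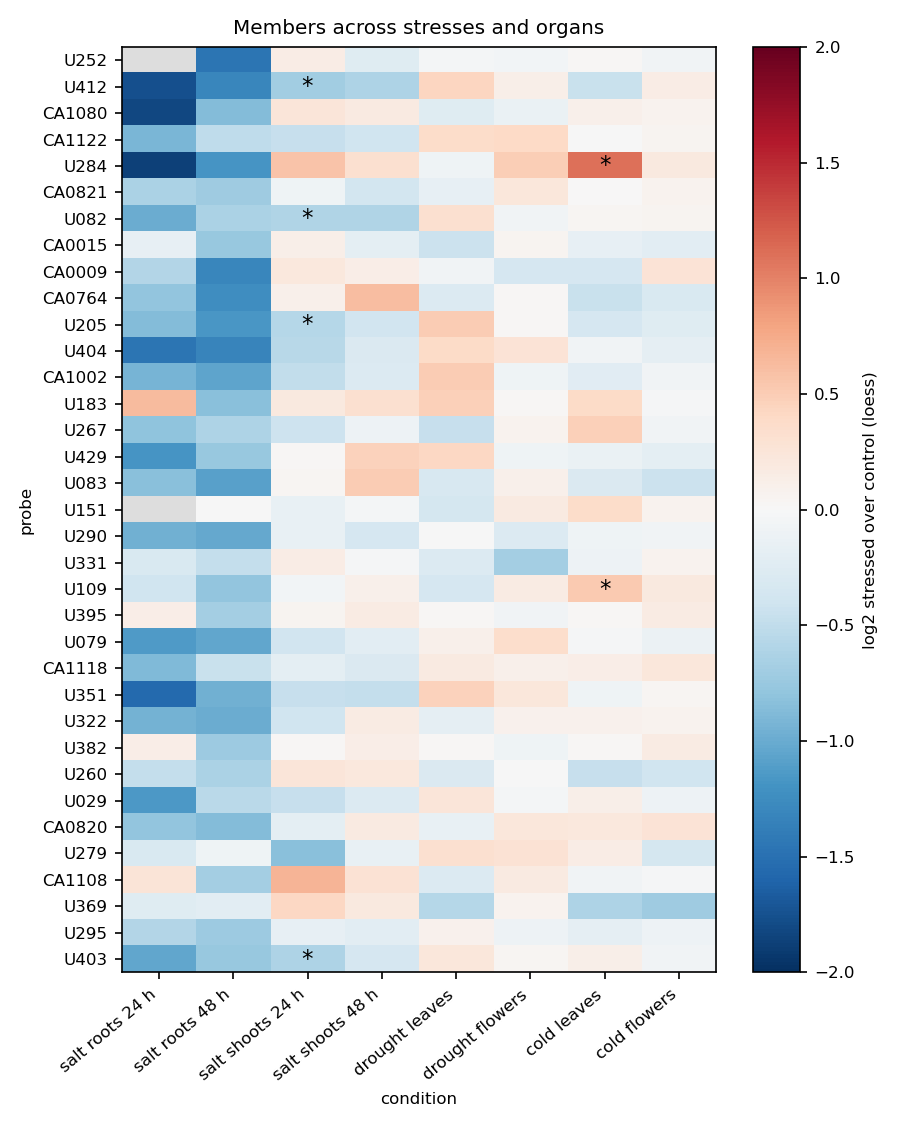
Log2 ratio of stressed over control RNA after loess for the 35 probes (down the page, ordered by their root mean at 48 h) in the 8 conditions (across). Values are fitted, except for salt roots at 24 h, which is the single scan; grey marks no value, and an asterisk marks an adjusted p under 0.05 in a condition that the choice had not used. The 48 h root column is blue by the rule that chose the probes, and the 24 h root column, which the choice had not used, is mostly blue. The drought and cold columns hold both signs, and U284 in cold leaves reaches 1.11.

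The drought and cold responses of the leaves were also compared directly. In drought minus cold, 1 of the 35 probes was lower and 1 was higher (limma adjusted p under 0.05), beside 2.23% of all probes tested lower, 1.49% higher and 3.72% in either direction. U109 was below 0 on every array of drought-stressed leaves and above 0 on every array of cold-stressed leaves, and the difference was -0.87 ± 0.16 (SE, limma adjusted p = 0.00899). U205 had ratios of 0.38, -0.14 and 0.99 in drought and of -0.40, -0.79 and -0.08 in cold. Its difference was 0.83 ± 0.21 (limma adjusted p = 0.0425), and the arrays of the 2 stresses overlapped. It did not pass in the fits without array 2 or 3 of cold leaves or without array 1 or 3 of drought leaves, and that of U109 did not pass without array 3 of drought leaves. U267 differed by -0.94 ± 0.25, CA1002 by 0.73 ± 0.21, U284 by -1.18 ± 0.34 and U412 by 0.87 ± 0.25, with limma adjusted p of 0.0507, 0.0511, 0.0511 and 0.0529, all just short of the threshold. The other 3 differences tested were drought against cold in flowers and leaves against flowers under each stress. By limma each had 0 of the 35 past the threshold, beside 0.0% of all probes in each, and 0, 4 and 3 at an unadjusted p under 0.05, beside 11.3%, 7.97% and 4.38% of all probes.

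**Figure D5:**
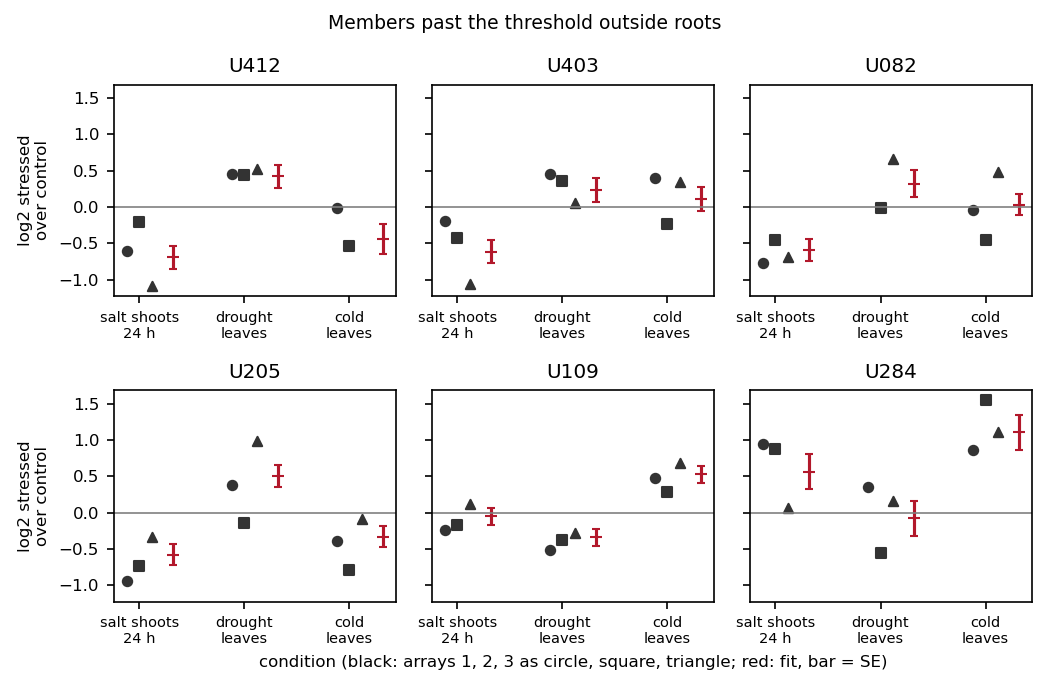
Log2 ratio of stressed over control RNA after loess in salt shoots at 24 h, drought leaves and cold leaves, for the 6 probes past the threshold in a condition or difference that the choice had not used. Black symbols are arrays 1, 2 and 3 and the red mark is the fitted value with its SE. U412, U403, U082 and U205 lie below 0 on all salt shoot arrays, and U109 lies below 0 in drought and above 0 in cold.

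Under salt, U284 was below 0 in roots, while its means in shoots were above 0. It was at -2.04 in the root scan at 24 h and at -1.32 in roots at 48 h by the rule's measure. After loess it was above 0 on every array of salt shoots at 24 h and of cold leaves, while by the rule's measure array 3 of salt shoots at 24 h stood at -0.22. Its shoot ratios at 48 h, after loess, were 0.44, 0.62 and 0.11. By the rule's measure they were 0.56, 0.70 and -0.005. The fitted shoot value at 24 h did not pass (limma adjusted p = 0.148). The difference between roots and shoots at 48 h belongs to the choice and was not tested.

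Levels in unstressed tissue were compared between organs through the control channels, each centred on the median of 155 probes measured in all of them. In control roots at 24 h, 26 of the 35 probes were higher than in control shoots at 24 h (74.3%), beside 58.8% of 313 U and CA probes. The median difference was 0.27 on the log2 scale, against 0.22 over all 313. U284 stood at 3.17 in control roots, which is 1 scan, and at 0.63 ± 0.25 in control shoots (SD, n = 3). CA1080 stood at -0.50 in control roots and at -3.25 ± 0.28 in control shoots. These 2 probes, with the largest root excess of the 35 at 2.53 and 2.75, also had the lowest ratios in the 24 h scan. The control channel of that scan enters both values, so they are not independent. The lowest differences, roots minus shoots, were those of U267 at -1.87, U395 at -1.75 and U382 at -1.57.

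Correlations over arrays were computed for pairs of the described probes. Across the 15 arrays of conditions that the choice had not used, leaving out the 24 h root scan, the median Pearson correlation of the 595 pairs was 0.02, and 6 pairs were above 0.9. These are descriptions over arrays that share stress, organ and slide. The share of such pairs among all U and CA probes was not computed, so the 6 are not read as a trait of the described probes. U395 and U382 had the highest, at 0.98, and over 21 arrays their ratios after loess differed by at most 0.17 on the log2 scale. Both were in row 14 of subgrid column 4 on the slide. Whether these 2 cDNAs overlap in sequence was not examined, and the part of slide position was not tested. Next were U205 with CA1002 at 0.94, CA0764 with U083 at 0.93, U404 with U029 at 0.91 over 13 arrays, U322 with CA0820 at 0.91, and U404 with U351 at 0.91. Of these, U404 and U029 shared row 8 of subgrid column 1, and the other pairs did not share a row within a subgrid column.

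On the slide, 5 of the 35 probes (U029, U079, U082, U403 and U404) were in row 8 of subgrid column 1, where 9 U and CA probes were measured in roots at 48 h. Another 3 were in row 8 of subgrid column 2, also of 9 measured, and 3 in row 9 of subgrid column 3, of 8 measured. These rows were picked after their counts were seen. Over the whole slide the described probes were 15.2% of the 231 measured. By subgrid column the counts were 9 of 57, 12 of 87, 7 of 43 and 7 of 44. The part of slide position in the ratios was not tested.

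The authors' deposited table of log2 values gave 32 of 33 listed probes below 0 in roots at 48 h, with a median of -1.51 against -0.31 over 298 U and CA probes, of which 59.1% were below 0. It was made from the same arrays, and its centring is not stated. In roots at 24 h, the authors' deposited table gave 29 of 30 below 0, beside 65.8% of U and CA probes. U183 was the probe above 0 at both times in the authors' deposited table, with 0.02 at 48 h and 0.68 at 24 h. A value below 0 there need not be below the median of -0.31 at 48 h. U284 at -0.08, CA1118 at -0.18, U395 at -0.20 and U382 at -0.0006 were also above that median. Relative to it, these probes and U183 were not low in roots at 48 h. In the other 6 conditions of the authors' deposited table, between 17 and 26 of the 35 probes (48.6% to 74.3%) were below 0, beside 49.4% to 65.0% of U and CA probes.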

How the data were processed

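Each of 8 conditions had files for 3 arrays, with 1 file per channel, and those of the 24 h roots held copies of 1 scan. Per the file headers, the deposited intensity values are the mean brightness of each spot and of its local background, measured with ImaGene 5.5. The authors' deposited table holds log2 ratios made, per the labels and the series design, after background subtraction, omission of flagged spots and LOWESS; the size of its log shift and its centring are unknown. Its signs, its medians and the values of single probes were used.

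A spot was not used if it had a flag in any of its channels. Ratios are stressed over control, with the dye taken from the file names. The measure of the rule (background subtraction and median centring) was computed with Python 3.11.15 and pandas 2.3.3. For the tests, normexp (offset 50) and global loess were followed by limma 3.58.1 in R 4.3.3 on 21 arrays, without the 24 h root scan, with 1 coefficient for each condition and a dye term shared by all. A probe needed values on 2 arrays, and Benjamini-Hochberg adjustment ran over all probes tested in a comparison. The fit was run on simulated data with effects larger than those called here, which does not show how it performs at the size called. A probe was above background where 50% of its spots exceeded the background mean by 2 SDs. Control probes were left out. Arrays limit the precision by their number.

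The members, lists and tests were chosen with earlier results of these data known. Probes named are the 12 lowest on 3 root arrays, the 5 lowest on 2, the 3 on each side of the limit, the 5 lowest and 5 highest at 24 h, all past the threshold elsewhere, and in each tested condition the 3 lowest and 3 highest with 1 sign on 3 arrays. Others were named after their values were seen. Alternatives changed the background correction, normalisation, dye term, spot filters, day block and test, and left out each array.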

Additional observations from a re-analysis of the deposited data

Results flagged for a closer look

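Drought and cold leaves differed for 2 of the 35 probes when the difference itself was tested, beside 3.72% of all probes tested. The count is not read as a trait of the described probes, and the 2 are given as single probes. U109 was lower in drought than in cold, with a difference of -0.87 ± 0.16 (SE, limma adjusted p = 0.00899), below 0 on 3 of 3 drought arrays and above 0 on 3 of 3 cold arrays. It kept an adjusted p under 0.05 in 28 of 30 alternatives, and lost it with no dye term and without array 3 of drought leaves. U205 was higher in drought than in cold, with a difference of 0.83 ± 0.21 (limma adjusted p = 0.0425). It was above 0 on 2 of 3 drought arrays and below 0 on 3 of 3 cold arrays, and passed in 19 of 30 alternatives. Among those where U205 did not pass were no dye term, the day block and flagged spots kept. It also did not pass without array 2 or 3 of cold leaves or array 1 or 3 of drought leaves. The cause of either difference was not tested.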

How the results depend on the processing

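The number of probes was 35. It was 18 with a mean of -1 or less and 69 with flagged spots kept, 25 of them shared, and it ran from 27 to 32 leaving out 1 root array. In salt shoots at 24 h the 4 calls became 2 with median centring, with or without normexp, 1 with flagged spots kept, and 0 when fitted alone, with day as a block, with the methods' t-test or with no dye term. They ran from 0 to 6 leaving out 1 array of any condition, with 0 without array 1 or 3 of the condition, 2 without its array 2, 1 without array 2 or 3 of drought flowers and 6 without array 1 of salt roots at 48 h. In cold leaves the 2 calls became 0 when fitted alone, with day as a block or by the t-test, 1 with no dye term and 1 over the 26 probes on 3 root arrays, and ran from 0 to 3 leaving out 1 array, with 0 without array 3 of cold leaves and 1 without its array 1 or 2. In drought flowers the 0 calls ran from 0 to 1, the 1 being U331 without array 3. For drought minus cold leaves the 2 calls became 6 with scaled arrays or with both channels above background, 5 with at least 3 spots, 4 with median centring, with or without normexp, 1 with flagged spots kept, with the day block or over probes on 3 root arrays, and 0 with no dye term, and ran from 0 to 6 leaving out 1 array. There were 0 without array 3 of drought leaves, 1 without its array 1, array 3 of cold leaves, array 1 or 2 of cold flowers or array 2 or 3 of drought flowers, 4 without array 1 of cold leaves or of salt shoots at 48 h, 5 without array 2 or 3 of salt roots at 48 h, and 6 without array 1 of those roots or of drought flowers. The probes added there were among U267, CA1002, U284 and U412. The share of all probes called under each alternative is not given beside these counts, so they are not read as a trait of the described probes. The median in roots at 24 h was -0.84 after loess, -0.63 with scaled arrays and -0.94 with subtraction and median centring. The median in salt shoots at 24 h ran from -0.27 to -0.11 leaving out 1 array, that of drought leaves from -0.031 to 0.10, and over probes on 3 root arrays it was 0.058 in drought leaves and 0.048 in cold flowers. Of 375 alternative values for 16 results, 324 moved by less than the spread between arrays, or by less than 1.5 times for counts, 51 moved by more and 0 changed sign past a threshold. The causes were not tested. Leaving out each array of the other conditions was chosen after seeing the data. No paired analysis was run, because each array already sets stressed against control RNA. The replicates of each condition are numbered, but whether the numbers match between conditions is not known.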
